A study of Capra hircus with 3 samples.

Results

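FABP9, GPRC5D and DAPL1 are 3 of the 16739 genes measured in dorsal skin of fetal Cashmere goats. The members were chosen by name and selected on their measured levels, which were high in the latest of 3 stages, so the levels by stage are a description and carry no test. Single-cell RNA libraries were made from Northern Shaanxi White Cashmere goats (Capra hircus) at embryonic day 60 (E60), day 90 (E90) and day 120 (E120), which the study's design text assigns to induction, organogenesis and cytodifferentiation of the hair follicle. Each stage was 1 library, pooled before barcoding from at least 2 fetuses, so there is no replicate and no stage difference can be set against the spread between fetuses. The E60 and E90 libraries came from whole skin broken up with collagenase IV and pipetting, whereas the E120 library came from follicles picked out with forceps and dissociated with TrypLE. Stage and preparation cannot be told apart. Neither genotype nor treatment differed between the libraries by their labels.

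A growing hair follicle produces its fibre from the matrix, a zone of dividing cells around the dermal papilla. Cells that leave the matrix become either hair shaft, built from hair keratins such as KRT35, KRT84 and KRT85 and then from keratin-associated proteins, or inner root sheath, the sleeve around the shaft that is built from another keratin set, including KRT25, KRT27, KRT28 and KRT71. FABP9 belongs to the fatty acid-binding proteins, small cytoplasmic carriers of lipids, and is best known from sperm. GPRC5D is an orphan membrane receptor that is known from hair follicles and plasma cells. DAPL1, death associated protein like 1, is known from epithelia as they differentiate.

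The libraries held 6849 cells at E60, 6931 at E90 and 6896 at E120, with 65049552, 30277663 and 93403291 unique molecular identifiers (UMIs, 1 per captured molecule) and medians of 8579, 3714 and 13064 UMIs per cell. Pairs of libraries shared between 9 and 13 cell barcodes. Intervals are at 95%, exact Poisson for levels and exact binomial for shares, and reflect counting error alone.

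FABP9 had 0 counts at E60, 8 counts in 8 cells at E90 and 69829 counts at E120, or 748 counts per 1000000 UMIs (CPM). GPRC5D had 0 counts at both E60 and E90 and 48364 counts, 518 CPM, at E120. DAPL1 had 42 counts at E60 (0.646 CPM), 429 at E90 (14.2 CPM, 12.9 to 15.6) and 101941 at E120 (1091 CPM). FABP9 at E90 was at 0.264 CPM (0.114 to 0.521). DAPL1 thus was the member with the highest level before E120, 21.9-fold higher at E90 than at E60. Its E90 level was 3.20 higher on the log2(CPM + 1) scale, and from E90 to E120 the difference was 6.17 on that scale. All 3 members were at least 4-fold higher at E120 than at E90, as were 2.67% of the 6357 genes compared. Against E60 all 3 were likewise higher, as were 8.12% of genes, and DAPL1 was at least 4-fold higher at E90 than at E60, as were 7.23%. These contrasts chose the members and nothing is read from the counts.

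**Figure D1:**
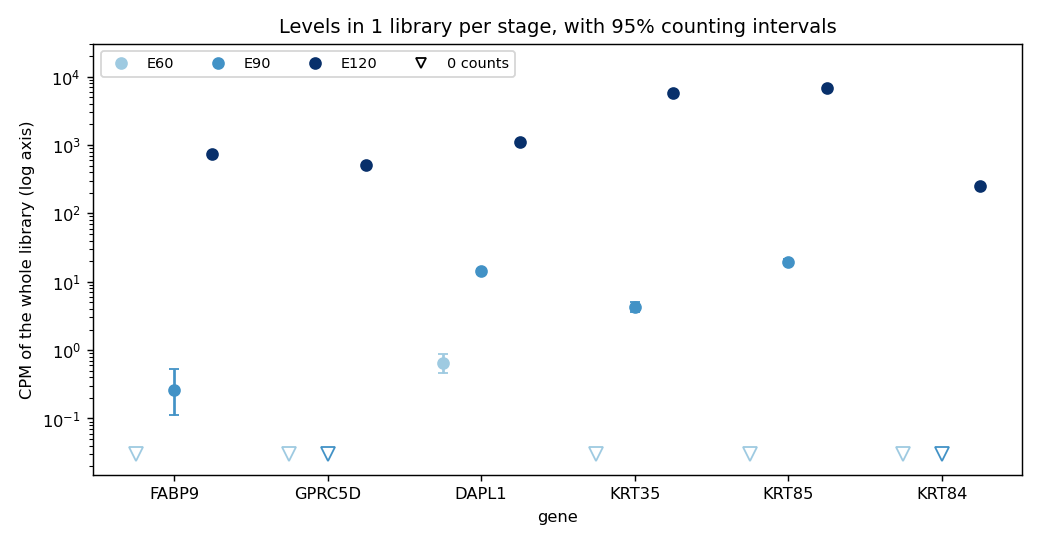
Level of each member and of KRT35, KRT85 and KRT84 in the whole E60, E90 and E120 library, in CPM on a log axis, with exact 95% Poisson intervals; open triangles mark 0 counts and have no height of meaning. DAPL1 had counts in all 3 libraries (0.646, 14.2 and 1091 CPM), while GPRC5D had counts at E120 only.

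No E60 or E90 cluster was named hair shaft-like, and the early DAPL1 counts were spread over several clusters. At E60, 20 of the 42 counts were in 2 small clusters, a myeloid-like one of 70 cells (10 counts, 14.2 CPM) and an unnamed one of 49 cells led by DRB3 (10 counts, 20.9 CPM). At E90, the level was highest in a suprabasal epidermis-like cluster of 151 cells, at 68.2 CPM (50.3 to 90.4), with a DAPL1 UMI in 25.2% of cells. An unnamed E90 cluster with 2054 of the 6931 E90 cells held 128 of the 429 counts. Its 15.3 CPM was near the 14.2 CPM of the whole E90 library. Another of 212 cells had 38.9 CPM, and a further suprabasal-like cluster of 249 cells had 33.1 CPM. A red cell-like E90 cluster of 180 cells had 13.2 CPM (6.35 to 24.3), and no background level was set for E90. KRT85 was at 66.2 CPM in that cluster of 212 cells, its second highest E90 level. It peaked at 569 CPM in an unnamed E90 cluster of 43 cells led by KRT85 and KRT25, where 37 cells had a KRT85 UMI and where DAPL1 had 1 count and FABP9, GPRC5D and KRT84 had 0.

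At E120 FABP9 stood apart from the other members, while GPRC5D and DAPL1 overlapped in part. FABP9 lay in cells like inner root sheath, GPRC5D in 1 small cluster at the far end of the hair shaft-like cells, and DAPL1 broadly across the hair shaft-like cells. Cells were grouped into 30 E120 clusters built without the 3 members and the 3 keratins, and clusters were named from other markers. Hair shaft-like clusters held 1812 cells (26.3%), inner root sheath-like clusters 966 (14.01%) and hair matrix-like clusters 493 (7.15%). Another 2282 cells (33.1%) were in clusters that stayed unnamed, several of them led by histone or mitotic genes. A further 771 cells were endothelium-, mural-, dermal papilla-, fibroblast-, mast- or myeloid-like.

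These 771 non-epithelial-like cells served as the background, since free RNA gives UMIs in cells that do not express a gene. Their median depth was 5683 UMIs, and they held 110 CPM of FABP9, 52.5 CPM of GPRC5D and 188 CPM of DAPL1. With every cell thinned to 2000 UMIs, 18.8% of them had a FABP9 UMI, 12.7% a GPRC5D UMI and 20.1% a DAPL1 UMI, against 24.1%, 10.8% and 44.3% of all E120 cells. Without thinning the shares of all E120 cells were 62.0%, 34.9% and 70.0%. A share of cells with a UMI is therefore close to background for FABP9 and at background for GPRC5D, and a cell was counted as holding a gene only above the 99th percentile of the 771 cells. That meant more than 2 thinned UMIs of FABP9 or GPRC5D and more than 4 of DAPL1. By that measure 331 E120 cells held FABP9 (4.80%), 167 held GPRC5D (2.42%) and 1024 held DAPL1 (14.8%). Cells exactly at the limit or 1 UMI above it numbered 303, 75 and 469. The background may also hold doublets, cells captured under the same barcode. A doublet caller marked 7.6% of cells in each of clusters 8 (endothelium-like) and 17 (dermal papilla-like). It marked 7.1% in mast-like cluster 23, 1.56% or less in the other background clusters and 1.75% of all E120 cells. How far doublets raise the background levels and limits was not tested.

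**Figure D2:**
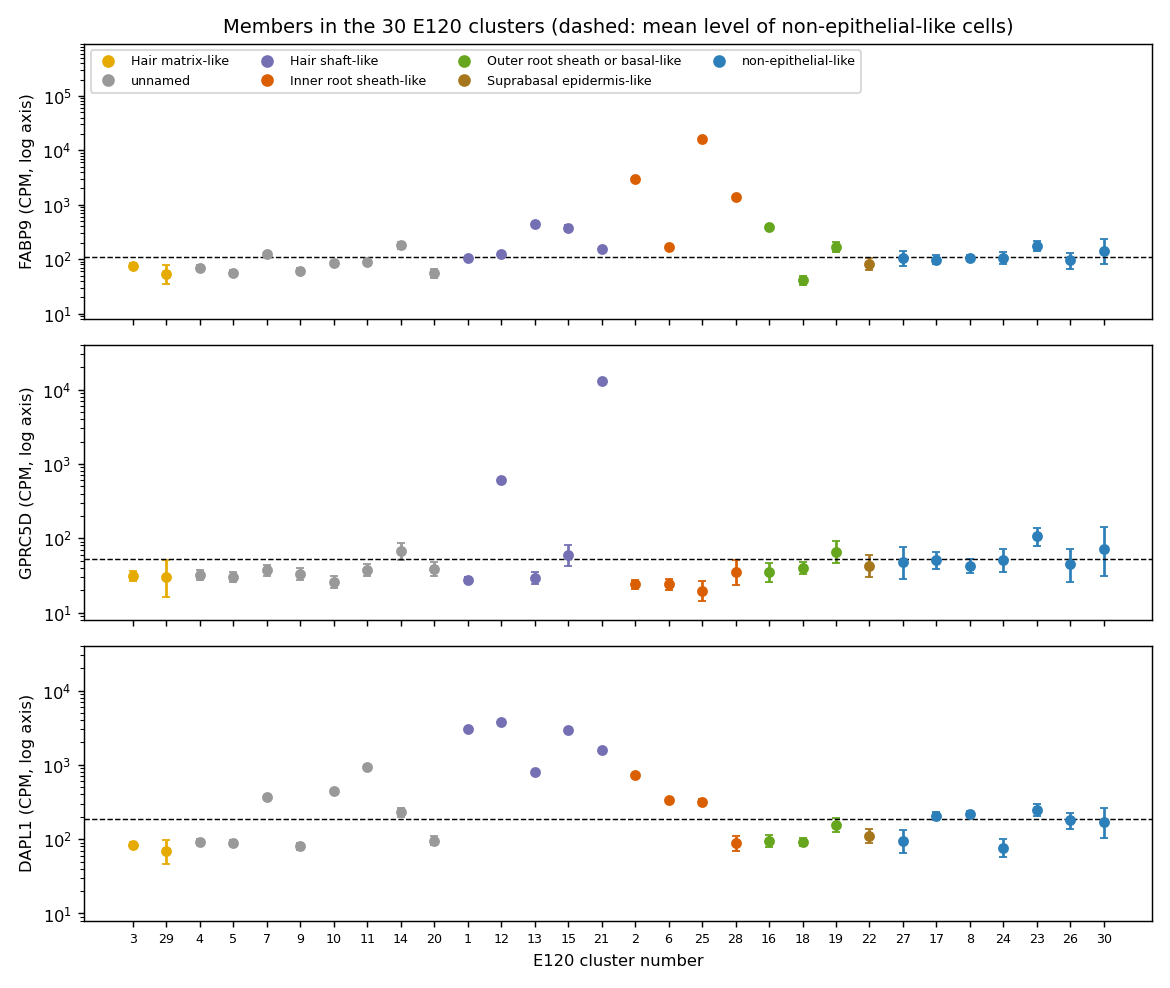
Level of FABP9, GPRC5D and DAPL1 in each of the 30 E120 clusters, in CPM on a log axis (the FABP9 panel has a taller axis), with exact 95% Poisson intervals; colours give the cluster's class and the dashed line the level in the 771 non-epithelial-like cells. FABP9 was highest in cluster 25 (15926 CPM), GPRC5D in cluster 21 (12940 CPM) and DAPL1 in cluster 12 (3804 CPM).

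FABP9, the lipid carrier, had 86.9% of its E120 UMIs in inner root sheath-like cells and 7.14% in hair shaft-like cells. Its level was 3601 CPM (3572 to 3629) in the former and 163 CPM (158 to 168) in the latter. Among the 4 inner root sheath-like clusters the order was cluster 25, led by KRT27, CASP14 and KRT71 (15926 CPM, 84 cells), cluster 2, led by KRT28 (2952 CPM, 502 cells), cluster 28, led by KRT73 (1361 CPM, 53 cells) and cluster 6, with GATA3 and the mitotic gene NUSAP1 among its leading genes (164 CPM, 327 cells). The intervals of these 4 levels did not overlap. Cluster 6 was near the background of 110 CPM.

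Within clusters FABP9 was uneven from cell to cell. In cluster 25 the lowest cell had 0, the median cell 3831 and the highest cell 203820 CPM. In cluster 2 the median cell had 686 CPM and the highest 38548 CPM. The 10 cells with the most FABP9 held 34.4% of all its E120 UMIs, and the 50 with the most held 59.6%. Without the 10 cells of highest FABP9 CPM, a set chosen by level and not by UMI number, 82.7% of the remaining FABP9 lay in inner root sheath-like cells.

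The inner root sheath-like cells were then put in order by their summed share of KRT25, KRT27, KRT28 and KRT71 and divided into 5 groups of 193 or 194 cells. FABP9 was at 72.7, 230, 579.5, 2244 and 11072 CPM from the group with the least sheath keratin to that with the most. Every step was upward, and the lowest group was under the background of the non-epithelial-like cells. CASP14, a protease of cornifying epithelia, was at 3.86 CPM or less in the first 4 groups and at 278 CPM in the last. The summed level of 14 cell cycle genes ran the other way, from 2277 to 68.7 CPM. GATA3, a transcription factor of the inner root sheath, stayed between 758 and 948 CPM in the first 4 groups and was at 501 CPM in the last. DAPL1 was at 150, 528, 722, 777 and 406 CPM, highest in the fourth group and under its background of 188 CPM in the first. GPRC5D was between 19.2 and 28.3 CPM throughout, under its background.

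**Figure D3:**
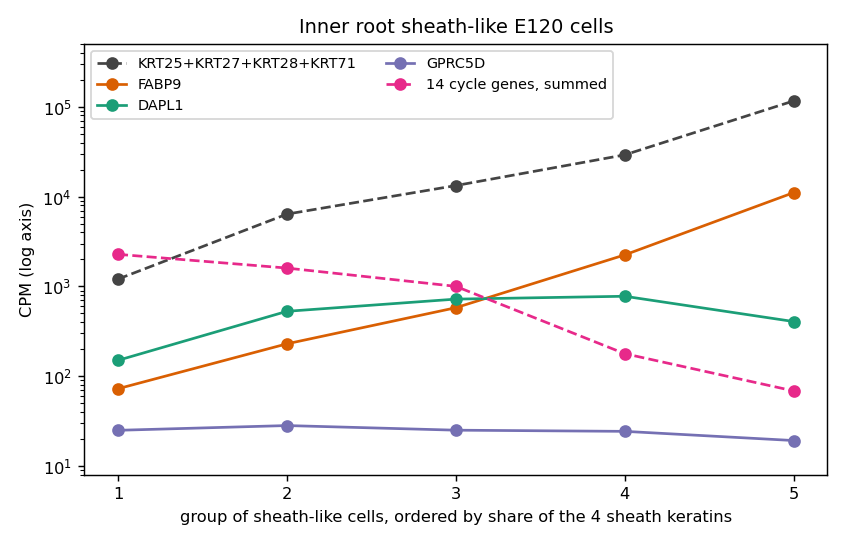
FABP9, DAPL1 and GPRC5D in the 966 inner root sheath-like E120 cells, divided into 5 groups of nearly equal size by their share of KRT25, KRT27, KRT28 and KRT71, in CPM on a log axis; dashed lines give the 4 keratins and 14 cycle genes, each summed. FABP9 was at 72.7 CPM in the group with the least sheath keratin and 11072 CPM in that with the most, while DAPL1 was highest in the fourth group at 777 CPM.

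Outside the sheath, FABP9 was at more than 3 times its background in 3 further clusters: hair shaft-like cluster 13 (435 CPM, 18 of its cells holding it), the shallow shaft-like cluster 15 (369 CPM) and outer root sheath- or basal-like cluster 16 (391 CPM). Most of the hair shaft-like cells had little. Cluster 1, the largest, was at 105 CPM and cluster 12 at 126 CPM.

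Among other measured members of the lipid-binding family, PMP2 was placed like FABP9 by cluster and CRABP2 was not. Of 14 genes of the family that were looked for, 6 were in the table and 4 reached 10 CPM on the higher side. Of all 5244 genes compared, 1.24% were at least 4-fold higher in inner root sheath-like cells than in other E120 cells. Among the 4, FABP9 was (3601 against 119 CPM), but it was a chosen member and says nothing of the others. So were PMP2, a myelin lipid carrier (39.6 against 2.14 CPM), and CRABP2, a carrier of retinoic acid (204 against 42.9 CPM). By cluster, however, CRABP2 was highest outside the sheath, at 1180 CPM in dermal papilla-like cluster 17 and 768 CPM in cluster 16. Within the sheath-like clusters CRABP2 was at 517 CPM in cluster 28 and lowest in cluster 25, at 114 CPM. CRABP1, its paralog, was at least 4-fold lower (16.4 against 287 CPM), as were 5.53% of genes. Of 15 measured genes of fatty acid handling, 1 was at least 4-fold higher, the very long chain elongase ELOVL4 (23.7 against 2.25 CPM), and 1 was lower, ACSL4 (4.45 against 32.0 CPM). The median log2 ratio of those 15 was -0.31, and that of all genes was -0.07. The table also has a row named FABP3.1, which was not on the list and was looked at after its values were seen. It ran the other way, at 25468 CPM in the outer root sheath- or basal-like cluster 18, 18142 CPM in the unnamed cluster 14 and 9297 CPM in shaft-like cluster 21, against 93.5 to 432 CPM in the 4 inner root sheath-like clusters. How reads shared by paralogs were counted is not given in the sources used here, so the FABP9 and PMP2 levels are uncertain to that extent.

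The 5 genes most like FABP9 over the 28 E120 clusters of at least 50 cells, by Pearson's r of log2(CPM + 1) among 3689 genes, were KRT27 (r = 0.93), KRT71 (0.92), KRT25 (0.89), the transglutaminase TGM7 (0.88) and PMP2 (0.85). Each of the 5 was highest in cluster 25. Clusters share 1 library and free RNA, so these are descriptions.

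GPRC5D, the orphan receptor, had 95.7% of its E120 UMIs in hair shaft-like cells, and 87.4% in cluster 21 alone. That cluster of 126 cells, led by the keratin-associated protein gene KRTAP11-1, the cortex keratin KRT33A and LY6G6D, stood at 12940 CPM (12817 to 13064). Cluster 12, a shaft-like cluster of 253 cells with EFHD1 and the desmosomal cadherin gene DSG4 among its leading genes, stood at 610 CPM (590 to 631). The other 28 clusters were between 19.6 and 106 CPM, where the background was 52.5 CPM, and the hair shaft-like clusters 1 and 13 were at 27.7 and 28.9 CPM. In cluster 21 the lowest cell had 0, the median cell 9842 and the highest 82465 CPM, and 118 of the 126 cells (93.7%) held the gene. In cluster 12 the median cell had 228 CPM and 17.4% of cells held it.

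Of the 4 GPRC5 genes, all were in the table. GPRC5D was higher in hair shaft-like cells than in other E120 cells (1513 against 33.2 CPM), GPRC5B was lower (1.18 against 13.9 CPM), and GPRC5A and GPRC5C were under 10 CPM in both. Among all 5386 genes compared, 1.21% were at least 4-fold higher in hair shaft-like cells and 10.3% were at least 4-fold lower. The genes most like GPRC5D over clusters were KRT33A (r = 0.91), KRTAP11-1 (0.90), the leucine aminopeptidase LAP3 (0.90), the growth factor FGF21 (0.83) and the protease SPPL3 (0.83), each with its highest level in cluster 21. With Spearman's rho none of these 5 stayed among the first 5.

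DAPL1 had 81.25% of its E120 UMIs in hair shaft-like cells, with 50.3% in cluster 1 and 20.7% in cluster 12. Its level there was 2709 CPM (2691 to 2727), against 514 CPM in inner root sheath-like and 82.8 CPM in hair matrix-like cells. By cluster the order began with cluster 12 (3804 CPM), cluster 1 (3004 CPM) and the shallow cluster 15 (2946 CPM, 2818 to 3077). Clusters 1 and 15 did not differ beyond counting error. Cluster 21, where GPRC5D peaked, followed at 1587 CPM, then the unnamed mitotic cluster 11 at 931 CPM and cluster 13 at 808 CPM. Inner root sheath-like cluster 2 came next with 725 CPM, 3.86 times the background. In that cluster KRT35 was at 692 CPM, under its own background of 988 CPM.

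DAPL1 was even from cell to cell where FABP9 was not. The 10 cells with the most held 1.90% of its E120 UMIs. In cluster 12 the median cell had 3478 CPM and 74.3% of cells held the gene, and in cluster 1 the median cell had 2703 CPM and 57.3% held it. The related gene DAP was not analysed here. The genes most like DAPL1 over clusters were the lipoxygenase gene ALOX15B (r = 0.88), KRT85 (0.86), the glutathione transferase gene MGST3 (0.84), IMPDH1 of guanine nucleotide synthesis (0.82) and the thioredoxin gene TXN (0.81).

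FABP9 was seldom held with either of the others. DAPL1 was held by a larger share of GPRC5D cells than of all E120 cells, but by a smaller share than of hair shaft-like cells. Of the E120 cells, 312 held FABP9 alone, 105 GPRC5D alone and 944 DAPL1 alone. GPRC5D and DAPL1 were held together by 62 cells, which is 37.1% (29.8 to 44.9) of the GPRC5D cells and 6.06% of the DAPL1 cells. DAPL1 was held by 14.8% of all E120 cells and by 51.8% of the hair shaft-like cells. FABP9 and DAPL1 were held together by 19 cells (5.74% of the FABP9 cells), and FABP9 and GPRC5D by 1, which held all 3. The 19 cells were in cluster 2 (8 cells), cluster 15 (5), cluster 1 (3), cluster 12 (2) and cluster 11 (1). The doublet caller marked 5 of the 331 FABP9 cells, 1 of the 167 GPRC5D cells and 22 of the 1024 DAPL1 cells. It marked 28.5% of the doublets simulated from the E120 library, so unmarked doublets may remain among them.

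Of all E120 cells, 20.8% held KRT85, 21.2% held KRT35 and 5.29% held KRT84. GPRC5D cells were above the first of these shares and below the second, DAPL1 cells were above all 3, and FABP9 cells were below the first 2. Among hair shaft-like cells the shares were 74.3% for KRT85, 72.7% for KRT35 and 17.9% for KRT84. Against that class, DAPL1 cells were higher for KRT85, near it for KRT35 and lower for KRT84. Of the 167 GPRC5D cells, 165 held KRT85 (98.8%, 95.7 to 99.8), 8 held KRT35 (4.79%) and 3 held KRT84. Of the 1024 DAPL1 cells, 848 held KRT85 (82.8%), 772 held KRT35 (75.4%) and 126 held KRT84 (12.3%). Of the 331 FABP9 cells, 35 held KRT85 (10.6%), 33 held KRT35 (9.97%) and 25 held KRT84 (7.55%). These shares use the limit above background, which was more than 18 thinned UMIs for KRT35, 11 for KRT85 and 1 for KRT84. A cell that does not hold a keratin can therefore still have it, and cluster 21 had 1647 CPM of KRT35. At 2 thinned UMIs or more, 55.2% of GPRC5D cells had KRT35, against 48% of all E120 cells. With 1 thinned UMI counted as holding, 79.2% of GPRC5D cells held KRT85, 69.8% of them held KRT35, and 64.3% of FABP9 cells held KRT35, while 56.9% of the non-epithelial-like cells had a KRT35 UMI.

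Read the other way, the 810 cells that held KRT35 and KRT85 without KRT84 had 3310 CPM of DAPL1, and 68.4% of them held it. Here too, a keratin that is not held is one at or under its limit, and it may still be present. The 341 cells with KRT35 alone had 1654 CPM of DAPL1 (28.45% holding), and none of them held GPRC5D, which allows a share of up to 1.08%. The 391 cells with KRT85 alone had 5875 CPM of GPRC5D (39.4% holding), against 79.8 CPM in the cells with both KRT35 and KRT85. In those 391 cells DAPL1 was at 2485 CPM. The 97 cells with KRT35 and KRT84 had 882 CPM of DAPL1, and none held GPRC5D, which allows up to 3.73%. The 4989 cells that held none of the 3 keratins were 72.35% of E120 cells and contained 288 of the 331 FABP9 cells. Of them 5.77% held FABP9, against 4.80% of all E120 cells. The share was highest in the 215 cells with all 3 keratins, at 9.30% (5.8 to 14), and 0.741% to 6.25% in the remaining groups.

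For the order of the genes, the 2305 hair matrix- and hair shaft-like cells were placed on an axis by diffusion pseudotime, built without the 6 genes and rooted at the cell with the highest share of cycle genes. The axis is a likeness order among cells of 1 library and not a measured time. A gene's position is the percentage of cells along the axis below which 50% of its summed level lies, written here as its half-level position. KRT84 came first (38.6%), then KRT35 (56.1%), DAPL1 (67.3%), KRT85 (81.9%) and GPRC5D (98.5%). FABP9 had 57.8%, but no more than 271 CPM in any segment of the axis, against a background of 110 CPM. For comparison SHH, the signal of matrix cells, was at 3.97%, LY6G6D at 96.0% and KRTAP11-1 at 98.5%.

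The axis was divided into 10 segments of 230 or 231 cells. DAPL1 was at 63.9 and 95.9 CPM in the first and second, 1174 in the third, and then stood higher in each segment up to 3833 CPM in the ninth, before 2561 CPM in the last. KRT35 was at 442 CPM in the first segment and 12577 in the third, stayed between 17328 and 18851 CPM from the fourth to the eighth, and was at 4017 CPM in the last. KRT85 was higher in every segment from the third (4091 CPM) to the last (45534 CPM). KRT84 peaked in the fourth segment at 2278 CPM. GPRC5D was between 21.7 and 44.8 CPM in the first 8 segments, under its background, then 278 CPM in the ninth and 8032 CPM in the last. The last segment held 124 of the 126 cells of cluster 21 and 94 cells of cluster 12.

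**Figure D4:**
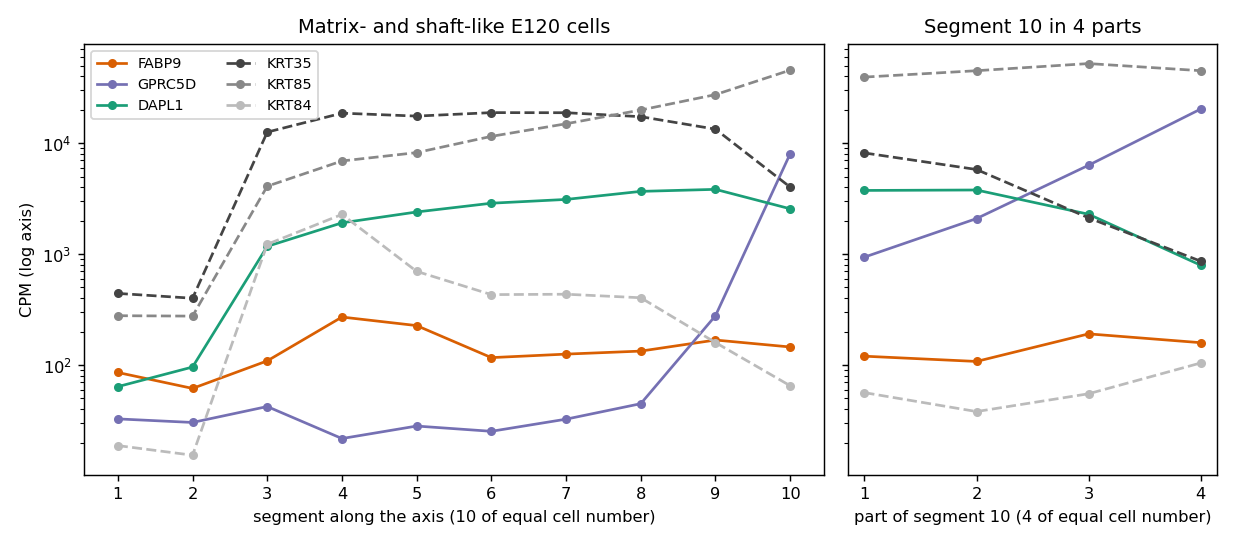
Levels of FABP9, GPRC5D and DAPL1 (solid) and KRT35, KRT85 and KRT84 (dashed) along the axis of 2305 hair matrix- and hair shaft-like E120 cells, in CPM on a log axis, by 10 segments of nearly equal cell number (left) and, for the last segment, in 4 parts (right). KRT35 was at 12577 CPM in the third segment and 4017 CPM in the last. DAPL1 was at 1174 CPM in the third, highest in the ninth (3833 CPM) and at 2561 CPM in the last. GPRC5D went from 278 CPM in the ninth segment to 8032 CPM in the last.

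DAPL1 and GPRC5D ran opposite ways inside the last segment. In its 4 parts of 57 or 58 cells, GPRC5D was at 939, 2090, 6324 and 20294 CPM. DAPL1 was at 3748, 3783, 2287 and 794 CPM, and KRT35 at 8161, 5789, 2122 and 863.5 CPM. KRT85 stayed between 39410 and 52185 CPM. KRT33A was at 11.4, 15.1, 58 and 492 CPM and KRTAP11-1 at 58.8, 84.0, 284 and 1080 CPM, both highest in the part where GPRC5D was. HOXC13, a transcription factor of hair keratin genes, was at 562 CPM in the first part and 292 CPM in the last. Median depth moved with this order, from 24603 to 28644 UMIs per cell, and its part in the result was not tested.

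DAPL1 came after KRT35 in 6 of the 7 axes that were built, by 11.2 points on the main axis and by 3.22 to 8.34 points on the other 5. With cells put in order by their share of other hair shaft genes, DAPL1 had 58.55% and KRT35 60.4%, so that DAPL1 came 1.87 points earlier. GPRC5D came after KRT35, KRT85 and DAPL1 by half-level position in all 7 axes, at 97.98% to 99.01%. KRT84 could not be placed, since it came before KRT35 in 4 axes and after it in 3: it had 38.6% on the main axis, 60.98% without cluster 13, which held 61.9% of its UMIs, and 89.8% by the share of other shaft genes.

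Other hair shaft genes were counted in the same contrast. Of 17 hair keratin genes, 9 were in the table and 5 reached 10 CPM, and all 5 (KRT35, KRT85, KRT84, KRT33A and KRT36) were at least 4-fold higher in hair shaft-like cells, as were 1.21% of all genes compared, with 10.3% lower. KRT35, KRT85 and KRT84 had no part in building or naming the clusters. The other hair keratins, the keratin-associated protein genes and most of the other shaft genes were markers used for the names (KRTAP11-1, KRT33A and LY6G6D in cluster 21, HEPHL1 in cluster 1, DSG4 in cluster 12, SELENBP1 in clusters 13 and 15), so nothing is read from their counts. Both measured keratin-associated protein genes were higher, KRTAP11-1 (78 against 1.29 CPM) and KRTAP3-1 (19.8 against 1.96 CPM). Of 7 other shaft genes measured, LY6G6D, SELENBP1, HEPHL1 and DSG4 were higher and PADI3 and CRYM lower. Of 14 measured matrix and shaft regulators, none was higher and 1, SHH, was lower (2.09 against 44.5 CPM). Several of them, SHH, LEF1, HOXC13, MSX1, BAMBI, WNT10A and WNT5A, were hair matrix markers used for the names. SHH led the matrix-like clusters 3 and 29, so nothing is read from the regulator counts either. Of 12 measured cycle genes, all 12 were lower.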

How the data were processed

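The deposited values were natural log values per gene and cell, which the values themselves showed to be ln(1 + 10000 × count / total), since after inversion 100% of nonzero values came out whole (tolerance 0.01) when the lowest value in a cell was taken as 1 UMI. All counts used here are these recovered UMI counts, where counts had been planned for. Cell Ranger 3.0.2 was used, per the submitters' processing notes; the genome build, annotation and filters are not given in the sources used here. The table held 20676 cells, and the design text states 19705. All cells were kept. Levels are summed counts per 1000000 UMIs (CPM), and stages were compared as the log2 ratio of CPM + 1. Stages have no replicate, so nothing was tested and there are no p-values.

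Each library was clustered alone, without FABP9, GPRC5D, DAPL1, KRT35, KRT85 and KRT84 (2000 variable genes, 30 principal components, 20 neighbours, Leiden resolution 1; leidenalg 0.10.2, igraph 0.11.9, scikit-learn 1.9.0, numpy 2.4.6, scipy 1.17.1, Python 3.11.15). A cluster was named with at least 3 markers of its class found (in at least 10% of cells and at least 2 times the median cluster) and at least 1 among its 10 leading genes, otherwise left unnamed; class names may differ from the authors'. Cluster 15 had under 1/3 of the library's median depth and HBAI as its first leading gene. For shares, each cell was thinned to 2000 UMIs; every cell was deep enough. Doublets were scored with a script of Scrublet's algorithm, which marked 1.75% of E120 but 0.073% of E60 and 0% of E90, where it did not work. At E120 it marked 28.5% of simulated doublets. No cell was removed for it. Scripts were tested on simulated data.

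Named were the 3 members, the 3 keratins, the 5 genes most like each member among those with at least 50 CPM in a cluster of at least 50 cells, and, from each list, up to 4 genes with the highest level in hair shaft-like cells. FABP3.1, SHH, HOXC13, CASP14, PMP2, ELOVL4, ACSL4 and the genes that led clusters were chosen after their values were seen. A gene of a list counted as higher or lower at 4-fold with at least 10 CPM on the higher side. Members, lists and markers were chosen with earlier results of these data known. The limit above the 99th percentile of non-epithelial-like cells was set after the data were seen.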

Additional observations from a re-analysis of the deposited data

How the results depend on the processing

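No paired analysis was possible because each stage is 1 library. For stages, the log2 ratios against E90 and E60 were 9.21 and 9.55 for FABP9, 9.02 and 9.02 for GPRC5D and 6.17 and 9.38 for DAPL1. Weighting each cell the same gave 8.69 and 9.05, 8.30 and 8.30, and 5.81 and 9.10. A pseudocount of 10 CPM gave 6.21 and 6.24, 5.72 and 5.72, and 5.51 and 6.69. Median-of-ratios scaling gave 9.67 for FABP9 against E60, 9.14 for GPRC5D and 6.62 for DAPL1 against E90. Without called doublets FABP9 against E60 was 9.57 and GPRC5D 9.05. Without the 10 highest E120 cells (chosen after seeing the data) FABP9 was 8.81 and 9.15 and GPRC5D 8.84. The E120 shares of cells with FABP9, GPRC5D and DAPL1 were 14.99%, 6.57% and 35.2% at 1000 UMIs, 62.0%, 34.9% and 70.0% without thinning, and 8.15%, 3.21% and 29.6% at 2 UMIs or more; a cell filter (1000 genes or more, 10% mitochondrial counts or less) gave 21.9% for FABP9. The FABP9 share in inner root sheath-like clusters was 87.6% at resolution 0.5, 87.5% at resolution 2, 85.9% with the libraries clustered together, 87.6% with the 6 genes kept, 87.8% without called doublets, 88.4% without the 6% highest doublet scores, 87.9% under the cell filter, 78.8% with cells weighted the same and 82.7% without the 10 highest cells. For GPRC5D in hair shaft-like clusters it was 95.3% with the libraries together, 96.1% without the highest doublet scores, 89.9% with cells weighted the same and 95.1% without the 10 highest cells. For DAPL1 it was 80.9% at resolution 2, 70.7% with the libraries together, 81.0% with the 6 genes kept, 83.1% and 84.4% under the doublet settings, 81.6% under the cell filter and 78.7% with cells weighted the same. Of GPRC5D cells, 71.3% held KRT85 at 1000 UMIs, 96.6% without thinning, 94.6% at 2 UMIs or more and 98.8% above background. Of DAPL1 cells, 97.3% held KRT35 without thinning, 85.3% at 2 UMIs or more and 75.4% above background. Of FABP9 cells, 50.3%, 96.3%, 36.8% and 9.97% held KRT35 under those 4 settings, and of GPRC5D cells 62.7%, 96.6%, 55.2% and 4.79%.

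On the axis, a difference in position was called moved past 10 points, a limit that is not a replicate spread. GPRC5D minus KRT35 was 26.8 points with unnamed cycling clusters added and 60, 70 and 75 points by the first bin at 50% of the highest with 5, 10 and 20 bins. GPRC5D minus KRT85 was 29.2 points by the share of other shaft genes and 0 with 5 bins, so those 2 were not ordered there. DAPL1 minus KRT85 was -40, -40 and -45 points by those bins, and GPRC5D minus DAPL1 50 and 60 points with 10 and 20. DAPL1 minus KRT35 was 11.2 points, 3.22 with the cycling clusters added, 6.84 to 8.34 on 4 other axes and -1.87 by the share of other shaft genes; the cause was not tested. Of the 5 genes most like each member, Spearman's rho kept 3 for FABP9, 0 for GPRC5D and 3 for DAPL1, and a minimum of 10 CPM kept 3 for GPRC5D.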
